A study of Mus musculus with 6 samples.

Results

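The heat shock and DnaJ chaperone genes of the mouse were measured in the injured sciatic nerve of females and males. They were taken by name: every symbol with a protein-coding transcript that begins with Hspa, Hspb, Hspd, Hspe, Hsph, Hsp90 or Dnaj, together with the heat shock factor genes Hsf1 and Hsf2. This gave 77 of the 52999 gene symbols listed. RNA-seq was made from C57BL/6 mice of 6 to 8 weeks whose left sciatic nerve was cut at mid-thigh, and the proximal stump was taken 24 h after this axotomy. There were 3 libraries from females and 3 from males, each a pool of the nerves of 2 animals, and no transgene or deletion was named for either sex. Without sham nerves, which are not analysed here, the values describe axotomized tissue and not its response to the cut. The comparison asked is how the chaperone genes differed between the sexes in injured nerve.

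Chaperones bind unfolded protein and keep it from clumping until it has folded or been destroyed. The HSP70 proteins do so in cycles of ATP hydrolysis that DnaJ proteins (also called HSP40) start and HSP110 proteins, by exchanging the nucleotide, end; HSP90 finishes the folding of kinases and receptors, and the small heat shock proteins hold unfolded clients without ATP. Heat or damage releases the transcription factor HSF1, which binds heat shock elements in the promoters of inducible members such as Hspa1a, Hspa1b, Hspb1, Dnajb1 and Hsph1, while members such as Hspa8 are made in unstressed cells as well. In nerve, chaperones serve the heavy membrane and secretory output of Schwann cells and the transport and vesicle recycling of axons.

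The heat shock element is an alternating run of the units GAA and TTC spaced by any 2 bases. The sequences below, from the GRCm39 genome with transcript starts from the GENCODE M39 annotation, are shown because they carry such units in inducible members, or because they belong to the most abundant member or to a member that differed between the sexes. Each is written 5′ to 3′ on the strand of its gene, and the single-gene sequences hold the 250 bases before the start of the leading transcript. Capitals mark a pair of facing units, GAA then TTC or TTC then GAA with any 2 bases between, and a triple where 3 such units alternate at that spacing. Hspa1a (chr17:35191133-35191382, minus strand) and Hspa1b (chr17:35178215-35178464, minus strand) are neighbouring genes for the inducible HSP70. Hspb1 (chr5:135916510-135916759, plus strand) encodes a small heat shock protein, and Hspa8 (chr9:40712030-40712279, plus strand) the constitutive HSP70 of the cytosol. Dnaja4 (chr9:54606440-54606689, plus strand) encodes a DnaJ partner of HSP70. The last sequence is the 107 bases between the starts of the mitochondrial chaperonin genes Hspd1 and Hspe1 (chr1:55127184-55127290, written on the plus strand, that of Hspe1).
Hspa1a: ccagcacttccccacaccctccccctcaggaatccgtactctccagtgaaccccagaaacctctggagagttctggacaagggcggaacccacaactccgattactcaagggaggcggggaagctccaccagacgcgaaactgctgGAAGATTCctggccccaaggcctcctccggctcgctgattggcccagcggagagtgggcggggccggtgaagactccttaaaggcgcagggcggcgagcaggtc
Hspa1b: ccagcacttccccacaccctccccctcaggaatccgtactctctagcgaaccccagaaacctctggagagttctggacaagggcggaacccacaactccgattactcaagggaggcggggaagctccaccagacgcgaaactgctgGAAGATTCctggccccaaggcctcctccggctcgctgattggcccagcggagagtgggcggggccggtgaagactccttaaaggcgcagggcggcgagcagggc
Hspb1: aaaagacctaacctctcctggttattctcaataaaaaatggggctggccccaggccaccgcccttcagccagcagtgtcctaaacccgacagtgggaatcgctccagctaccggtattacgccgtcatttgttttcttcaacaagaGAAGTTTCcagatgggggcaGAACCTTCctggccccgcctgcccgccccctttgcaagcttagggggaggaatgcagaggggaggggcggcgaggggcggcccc
Hspa8: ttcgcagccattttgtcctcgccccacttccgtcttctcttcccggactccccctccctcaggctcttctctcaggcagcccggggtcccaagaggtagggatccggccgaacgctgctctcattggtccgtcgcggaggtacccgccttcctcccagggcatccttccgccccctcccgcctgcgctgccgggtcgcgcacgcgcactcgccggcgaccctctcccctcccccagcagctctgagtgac
Dnaja4: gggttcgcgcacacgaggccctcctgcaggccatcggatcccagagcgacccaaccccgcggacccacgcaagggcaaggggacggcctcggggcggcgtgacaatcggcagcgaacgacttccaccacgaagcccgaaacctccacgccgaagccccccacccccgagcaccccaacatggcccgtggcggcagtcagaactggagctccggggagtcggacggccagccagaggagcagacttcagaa
Hspd1-Hspe1 stretch: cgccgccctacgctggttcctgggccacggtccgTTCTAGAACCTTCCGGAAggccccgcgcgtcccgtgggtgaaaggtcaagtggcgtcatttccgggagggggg

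The upstream sequences of Hspa1a and Hspa1b were identical at 247 of 250 positions and differed by C44T, T47C and T249G, where the base of Hspa1a, the position counted from 1 at the 5′ end and the base of Hspa1b are given in this order. In the stretch between Hspd1 and Hspe1 the capitals form 1 run that serves as the upstream sequence of both genes. A triple, GAA then TTC then GAA or its reverse complement, lay within 250 bases before to 50 bases after the start in 2 of the 69 tested members, Hspd1 and Hspe1 (2.9%), and in 67 of 15195 tested protein-coding genes (0.441%). A pair in either order, each of which is its own reverse complement in its fixed bases and of which every triple holds 2, lay there in 15 members (21.7%) and in 1954 of all the genes (12.9%). In Hspa1a and Hspa1b the pair began 104 bases upstream of the start, and Hspb1 held 2 copies, 104 and 84 bases upstream. Hsph1 held it 28 bases upstream and 41 bases downstream, and Dnajb1 28 bases downstream of the start. Hspa8 and Dnaja4 held neither form in the window searched. A match is a description of letters, and the window leaves out elements farther from the start.

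Depth ranged from 49158283 to 69848769 estimated counts per library. Of the 77 genes, 69 had enough counts to be tested, among 18396 genes in all; the other 8, Dnajb7, Dnajb8, Dnajc22, Dnajc5b, Dnajc5g, Hspb3 and Hspb9 among them, held too few, and Dnajb8 and Dnajc5g were at 0 in every library. The libraries followed their labels in Xist, at 26310 to 40851 estimated counts in females and 6 to 193 in males. However, female 3 held 139 estimated counts of the Y-linked gene Ddx3y, where females 1 and 2 held 0 and the males 2268 to 3743. The Y-linked gene Eif2s3y was likewise at 0, 0 and 147 in females 1, 2 and 3 and at 2922 to 3680 in males. Kdm5d and Uty, also Y-linked, had counts in every female library. Kdm5d held 43, 51 and 83 in females 1, 2 and 3 and 944 to 1209 in males. Uty held 18, 37 and 79 in females and 448 to 784 in males. Skeletal muscle genes also divided the libraries across the sexes: the summed level of 26 listed markers was 888 and 537 TPM (the deposited level, corrected for transcript length and depth) in females 2 and 1 and 1078 TPM in male 3, against 75.3 to 93.9 TPM in the other 3 libraries. Of the 25 markers tested, 19 had negative log2 fold changes, 4 were called higher in females and 1 in males. Myelinating Schwann cell markers, which define the tissue, summed to 21100 to 27590 TPM in females and 45790 to 55550 TPM in males. Adipocyte markers summed to 197 to 1681 TPM in females and 129.7 to 663.6 TPM in males. Macrophage and neutrophil markers summed to 2889 to 4916 and 1902 to 4585 TPM. The 13 adipocyte and 11 macrophage and neutrophil markers tested all had negative log2 fold changes, and none was called. In bulk nerve, fewer cells of a type and less RNA per cell cannot be told apart.

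The share of all TPM held by the chaperone genes together overlapped between the sexes. It was 0.658%, 0.625% and 0.575% in females 1, 2 and 3, and 0.592%, 0.583% and 0.528% in males 1, 2 and 3. Male 3 was lowest and female 1 highest, and the difference of the means was not past the threshold (exact permutation test, two-sided, p = 0.3, where the smallest p that 3 against 3 libraries can give is 0.1). HSP70 genes held the largest part of the summed level in every library, 2079 to 2540 TPM in females and 1835 to 2309 TPM in males. HSP90 genes came next, with 1281 to 1518 TPM in females and 1080 to 1230 TPM in males, so that the sums did not overlap between the sexes. The 28 DNAJC genes summed to 762 to 878 TPM over the females and the 13 DNAJB genes to 385 to 397 TPM. The corresponding sums in males were 768 to 822 TPM and 404 to 430 TPM. The plot of summed levels by family shows this order in each library.

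**Figure D1:**
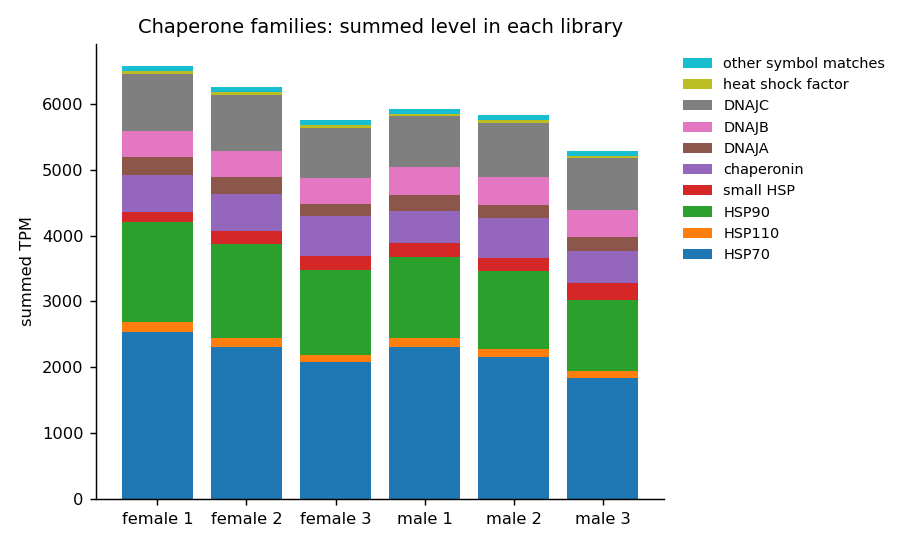
Summed TPM of the chaperone families in each of the 6 libraries, stacked from 0 (x axis, library; y axis, summed TPM; colours, families). HSP70 is the tallest block in every bar, and the whole bar runs from 5285 TPM in male 3 to 6583 TPM in female 1.

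A few genes carried most of this RNA. Hspa8, Hspa5, Hsp90ab1 and Hsp90b1 alone held 44.3% to 50.5% of the summed TPM, and the 10 most abundant genes held 65.6% to 70.6%. Hspa8, the constitutive HSP70 of the cytosol, was at 1173, 1001 and 898 TPM in females and 1065, 1110 and 844 TPM in males. Hspa5 (BiP), the HSP70 of the endoplasmic reticulum, followed with 901, 822 and 799 TPM in females and 848, 676 and 583 TPM in males. In both genes the libraries of the sexes interleaved. Hspa8 shares 77.2% of its 31-base words with other genes, mostly the copy Gm15459, so reads may have been divided between them. The inducible HSP70 genes stood far lower: Hspa1a was at 6.07 to 6.79 TPM in females and 7.14 to 10.4 TPM in males, and Hspa1b at 7.99 to 9.01 and 9.53 to 15.8 TPM. Hspa8 thus exceeded the sum of Hspa1a and Hspa1b 63.4 to 80.2 times in females and 42.9 to 51.8 times in males. This ratio did not overlap between the sexes (exact permutation test, p = 0.1, the smallest possible and not under the threshold of 0.1). It rests on TPM, whose length correction matters here, as given below. Other TPM ratios were tested too, and besides Hsp90ab1 to Hsp90aa1, given below, none reached the smallest possible p. Hspa5 to Hsp90b1 and Hsf1 to Hsf2 each gave p = 0.2 (exact permutation test). Hspe1 to Hspd1 and Cryab to Hspb2 each gave p = 0.3, and Hspa1b to Hspa1a p = 0.7 (exact permutation test).

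**Figure D2:**
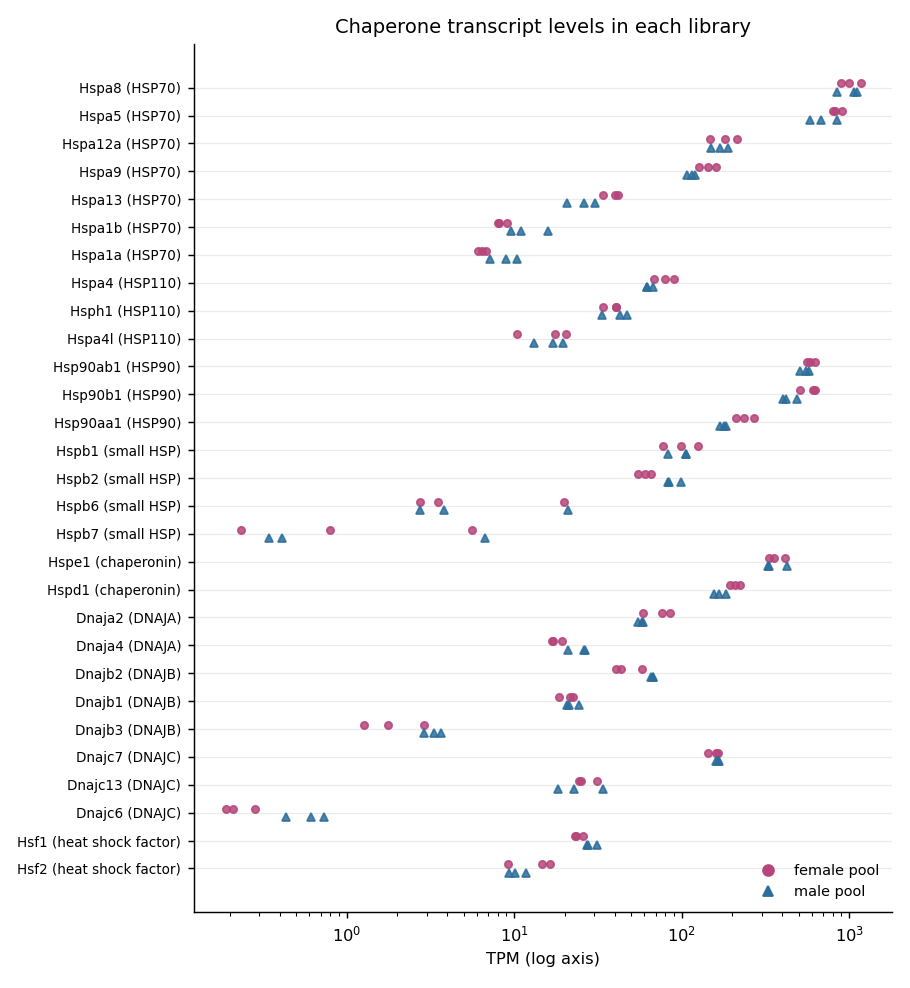
TPM of the chaperone genes described in full, with Hspb6 and Hspb7, in each library (x axis, TPM on a log axis; y axis, gene and family; circles, female pools; triangles, male pools). Levels run from under 1 TPM for Dnajc6 to 844 to 1173 TPM for Hspa8, and for most genes the circles and triangles lie close together.

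Of the 69 tested genes, 2 passed the threshold for a difference between the sexes, an adjusted p under 0.1 by edgeR's quasi-likelihood test with Benjamini-Hochberg adjustment over all 18396 genes. Of all tested genes, 5.3% passed. Both chaperone genes, Dnajc6 and Dnaja4, were higher in males, beside a background of 3.84% of all tested genes called higher in males. No chaperone gene passed in the female direction, for which the background was 1.46%. At an unadjusted p under 0.05, 7 of the 69 were higher in males and 4 in females, against 11.0% and 9.69% of all genes (20.7% in either direction). The DESeq2 Wald test called 4 and 2, against 7.67% and 5.59% (13.3% in all), and limma-voom called the same 2 genes as edgeR and no others, against 3.54% and 1.07% (4.62% in all). Normalised read counts (CPM, counts scaled to the size of the library) did not overlap between the sexes in 9 genes higher in males and 12 higher in females, beside 13.9% and 11.6% of all genes (25.5% in all). The log2 fold change, male minus female, was above 0 in 39 of the 69 genes and in 46.7% of all genes. Its median over the 69 was 0.038, and that of all tested genes was -0.026.

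The chaperone differences were small. The median size of the log2 fold change without its sign was 0.15 for the 69 genes and 0.23 for all 18396. Where the mean reached 10 CPM and counting noise matters less, it was 0.14 for 58 chaperone genes and 0.17 for 10256 genes. Dnajc6 alone differed more than 2-fold, 1.45% of the 69 against 6.39% of all genes tested. At a mean of 10 CPM or more, 0 of the 58 chaperone genes did, against 1.3% of the 10256 genes. Without female 3, the female library with Ddx3y counts, 6 (Dnaja4, Dnajb14, Dnajb2, Dnajb3, Dnajc6 and Hspb2) were called higher in males and 1 (Dnajc13) higher in females, among 13.7% of all genes. Without female 1, female 2 or male 3 none was called, with 0.00526%, 1.71% and 0.037% of all genes passing in those fits, while Dnajc6 was the gene left without male 1, among 3.38% of all genes, and Dnaja4 without male 2, among 4.02%.

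**Figure D3:**
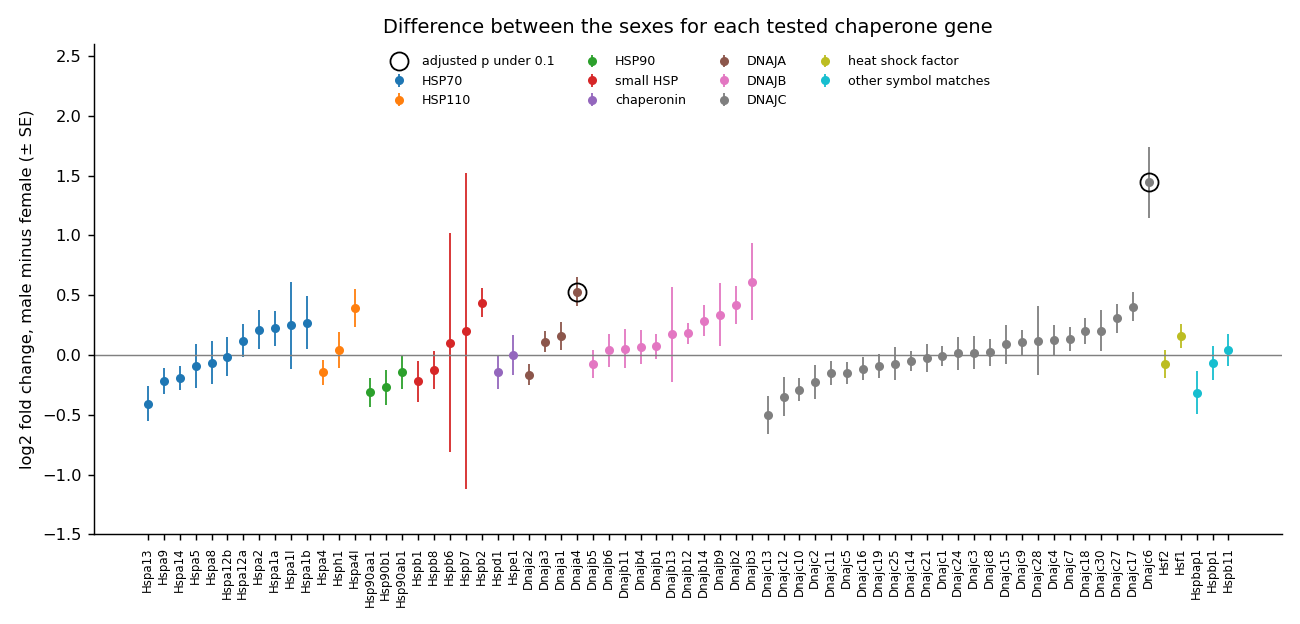
Log2 fold change, male minus female, of the 69 tested chaperone genes (x axis, gene in order of family; y axis, log2 fold change; points, estimates; bars, SE; colours, families). The 2 ringed genes passed an adjusted p under 0.1, Dnaja4 at 0.53 and Dnajc6 at 1.45, and the widest bars belong to Hspb6 and Hspb7.

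Dnajc6 (chromosome 4, 101353743 to 101502342, plus strand) encodes auxilin, the neuronal DnaJ protein that recruits Hspa8 to strip clathrin from endocytosed vesicles. Its levels were 0.59, 0.90 and 0.83 CPM in females 1, 2 and 3 and 1.57, 2.66 and 2.11 CPM in males. Every male library was above every female library, on 30 to 52 estimated counts in females and 106 to 150 in males. The log2 fold change was 1.45 ± 0.30 (SE, n = 3 and 3; edgeR quasi-likelihood adjusted p = 0.0608). The gene was rare, at 0.19 to 0.28 TPM in females and 0.44 to 0.74 TPM in males, and its reads were given to different transcripts from library to library, so no upstream sequence is shown for it. Of the central glia and neuron markers, 14 of 15 tested were called higher in males and their summed level was 5.91 to 7.57 TPM in females and 20.9 to 48.9 TPM in males. None of the 16 listed was at 0 in every library, but Mog, a myelin gene of oligodendrocytes, was at 0 estimated counts in females 1 and 2, 2 in female 3 and 64, 85 and 84 in males. Of the sensory neuron and axon markers 3 of 10 were, at 87.2 to 114.8 and 131.9 to 144.1 TPM, and the part of either in the Dnajc6 difference was not tested.

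Dnaja4 (chromosome 9, 54606147 to 54623601, plus strand), a cytosolic DnaJ partner of HSP70, held 33.4, 37.5 and 40.0 CPM in females and 57.0, 46.5 and 56.6 CPM in males. The lowest male library was above the highest female library. Its log2 fold change was 0.53 ± 0.12 (SE, n = 3 and 3; edgeR quasi-likelihood adjusted p = 0.073), with a 95% interval from 0.30 to 0.76. Of its TPM, 97.6% to 99.9% was in the transcript whose upstream sequence is printed above. Skic8 overlaps the gene on the opposite strand. Both called genes missed the threshold with the muscle marker score as a covariate, with adjusted p = 0.106 for Dnajc6 and 0.119 for Dnaja4, while their log2 fold changes were 1.44 and 0.55. Of the myelinating Schwann cell markers, 9 of 16 were called higher in males, and their part in the Dnaja4 difference was not tested.

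The other DNAJA genes, cochaperones of HSP70 for import and refolding, did not pass the test. Dnaja1, the most abundant of them, was at 88.8 to 150.9 TPM in females and 96.7 to 128.6 TPM in males. Dnaja2 had 123.1, 119.4 and 126.4 CPM in females and 108.1, 112.3 and 108.9 CPM in males, without overlap but with a log2 fold change of only -0.16 ± 0.09 (adjusted p = 0.327 by the edgeR quasi-likelihood test). Dnaja3, the mitochondrial member, had a log2 fold change of 0.11 ± 0.09.

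In the HSP70 family none of the 11 genes was called, and their log2 fold changes ran from -0.41 to 0.27. Hspa13, a microsomal HSP70 relative, had the lowest: 74.2, 78.1 and 97.5 CPM in females and 71.8, 54.5 and 62.1 CPM in males. The female libraries were all above the male libraries, and the adjusted p was 0.174 (edgeR quasi-likelihood test). Hspa9 (mortalin), the HSP70 of the mitochondrial matrix, was at 301.1, 279.5 and 306.1 CPM in females and 238.1, 276.6 and 248.8 CPM in males, with a log2 fold change of -0.22 ± 0.11. These ranges did not overlap either, by a narrow margin. Hspa12a, a distant HSP70 relative known from brain, was the third of the family in level, at 147.3 to 214.7 TPM in females and 149.0 to 188.4 TPM in males. Hspa8 had a log2 fold change of -0.06 with a 95% interval from -0.41 to 0.29, and Hspa5 of -0.09 with an interval from -0.46 to 0.27.

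Hspa1a and Hspa1b could be read only with caution, since 63.8% and 67.6% of the 31-base words in their transcripts are shared with each other. Hspa1a was at 16.7, 15.6 and 14.3 CPM in females and 19.7, 19.8 and 14.9 CPM in males, and Hspa1b at 19.0, 18.4 and 16.8 against 30.3, 17.8 and 17.2 CPM. Male 1 stood above the other libraries in Hspa1b, and for both genes the sexes overlapped. The log2 fold changes were 0.22 ± 0.15 and 0.27 ± 0.22 (edgeR quasi-likelihood adjusted p = 0.424 and 0.527). Without male 1 the Hspa1b value was -0.05. With effective transcript length as an offset the values were 0.50 and 0.57 (adjusted p = 0.160 and 0.173). The related testis gene Hspa1l was at 0.27 to 0.61 TPM over all 6 libraries.

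The HSP110 genes, nucleotide exchange factors of HSP70, gave Hspa4 at 185.5 to 227.2 CPM, Hsph1 at 65.6 to 98.9 CPM and Hspa4l at 46.0 to 77.2 CPM over the 6 libraries. Hspa4l had a difference of 0.39 ± 0.16 with overlapping sexes, and 0.11 with transcript lengths as an offset in the test. Hsph1, the heat-inducible member, had 0.04 ± 0.15, and its 95% interval ran from -0.25 to 0.34.

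All 3 HSP90 genes had negative log2 fold changes, but none passed the test. Hsp90aa1, the inducible HSP90 of the cytosol, was at 501.7, 469.7 and 553.0 CPM in females and 417.6, 427.8 and 382.9 CPM in males. The lowest female library was above the highest male library, and the log2 fold change was -0.31 ± 0.12 (edgeR quasi-likelihood adjusted p = 0.204). Hsp90b1 (GRP94), the HSP90 of the endoplasmic reticulum, was at 1121, 1144 and 1240 CPM in females and 1066, 967 and 872 CPM in males, again without overlap (log2 fold change -0.27 ± 0.14, adjusted p = 0.325). Hsp90ab1, the constitutive cytosolic form, overlapped, at 1196 to 1355 CPM and 1089 to 1226 CPM. The TPM ratio of Hsp90ab1 to Hsp90aa1 was 2.33, 2.50 and 2.66 in females and 2.99, 3.23 and 3.03 in males. The constitutive form thus held a greater lead in each male library (exact permutation test, p = 0.1, the smallest possible and not under the threshold). Hsp90aa1 shares 56.0% of its 31-base words with other genes. Its difference passed in the DESeq2 Wald test alone among the other fits with all libraries.

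The genes can also be grouped by compartment, a grouping made after their values were seen. The 8 genes of the endoplasmic reticulum summed to 1850, 1744 and 1612 TPM in females and 1663, 1384 and 1253 TPM in males, of which male 1 lay within the range of the females. These sums include Hspa5-204, a transcript of Hspa5 of 477 bases listed under nonsense-mediated decay. It was at 210, 189 and 114 TPM in females and 120, 56.4 and 67.3 TPM in males. The coding Hspa5-202 overlapped, at 643, 595 and 658 TPM in females and 704, 611 and 503 TPM in males. The 8 mitochondrial genes summed to 893 to 919 TPM in females and 766 to 939 TPM in males. Constitutive cytosolic genes stood at 1819 to 2285 and 1737 to 2077 TPM, and heat-inducible cytosolic genes, Hsp90aa1 included, at 403 to 423 and 346 to 388 TPM. Without Hsp90aa1 the heat-inducible sums overlapped, at 155 to 191 TPM in females and 169 to 203 TPM in males, and 4 of the 6 members had log2 fold changes above 0. None of the 28 genes in these groups was called.

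The endoplasmic reticulum DnaJ genes did not move together. Dnajb9 and Dnajb11, partners of Hspa5, had log2 fold changes of 0.34 ± 0.27 and 0.05 ± 0.16. Dnajc10, a disulfide reductase that works with Hspa5, had 106.9, 117.4 and 120.6 CPM in females and 97.2, 89.3 and 95.5 CPM in males. Its male libraries were all below the female ones, with a log2 fold change of -0.29 ± 0.10 (edgeR quasi-likelihood adjusted p = 0.152). Dnajc3, which holds unfolded protein and inhibits eIF2-alpha kinases, had 0.02 ± 0.14.

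Among the DNAJB genes 10 of 11 tested had a log2 fold change above 0, beside 46.7% of all genes. Their median was 0.17, and none was called. With the length offset Dnajb4, Dnajb6 and Dnajb13 were below 0, at -0.09, -0.09 and -0.46. Dnajb5, at -0.07 without the offset, was then at 0.02. Dnajb2, a DnaJ protein with ubiquitin-binding motifs that is mutated in hereditary motor neuropathy, was at 59.5, 64.8 and 90.2 CPM in females and 94.9, 95.3 and 96.3 CPM in males. Female 3 lay near the males, and the log2 fold change was 0.42 ± 0.16 (edgeR quasi-likelihood adjusted p = 0.191). Dnajb3 had the largest value, 0.61 ± 0.32, on 0.78 to 1.93 CPM, and lies within the Ugt1a genes on the opposite strand. Dnajb1, the main inducible DnaJ partner of HSP70, was at 43.6 to 47.1 CPM in females and 43.5 to 52.9 CPM in males, with a log2 fold change of 0.07 ± 0.10.

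The DNAJC genes are the most varied class, sharing only the J domain, and 25 of 28 were tested. Dnajc13, an endosomal protein that brings Hspa8 to sorting membranes, had 122.9, 107.3 and 77.9 CPM in females and 75.8, 70.0 and 72.1 CPM in males. Females 1 and 2 were well above the rest and female 3 only slightly, and the log2 fold change was -0.50 ± 0.16 (edgeR quasi-likelihood adjusted p = 0.149). Dnajc17, a nuclear member, had 14.2, 12.5 and 13.3 CPM in females and 16.3, 18.1 and 18.7 CPM in males, 0.40 ± 0.12 on the log2 scale (adjusted p = 0.123), and lies opposite Zfyve19. Dnajc7, a tetratricopeptide cochaperone of both HSP70 and HSP90, had the highest TPM of the DNAJC genes, summed over all its transcripts. It was at 143.8 to 165.6 TPM in females and 159.6 to 166.2 TPM in males. Its leading transcript, Dnajc7-215, is not listed as protein-coding and held 9.13% to 39.5% of this TPM. The level of its coding transcripts was not ranked, and Cnp and Nkiras2 overlap the gene on the opposite strand. Dnajc5, the cysteine string protein of synaptic vesicles, was at 105.4 to 119.1 CPM and 97.6 to 102.3 CPM, without overlap and with a log2 fold change of -0.15 ± 0.09. Dnajc12, which assists aromatic amino acid hydroxylases, had -0.35 ± 0.17 on 4.96 to 7.52 CPM, and -0.14 with the length offset.

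Of the 7 small heat shock protein genes 5 were tested and none was called. Hspb2, a muscle and heart member, was at 18.0, 18.2 and 20.8 CPM in females and 24.9, 23.7 and 28.5 CPM in males. The sexes did not overlap and the log2 fold change was 0.44 ± 0.12, just short of the threshold (edgeR quasi-likelihood adjusted p = 0.110). Hspb2 starts head to head with Cryab, the alpha-B crystallin gene, the starts lying 329 bases apart on chromosome 9 (50663858 on the minus strand and 50664187 on the plus strand). Cryab, at 660, 701 and 875 CPM in females and 985, 1094 and 1249 CPM in males, had a log2 fold change of 0.57 ± 0.17 (adjusted p = 0.123). Its TPM was 21.8 to 25.3 times that of Hspb2 in all 6 libraries. These leading transcripts run away from each other and do not overlap. The whole annotated span of Cryab covers Hspb2 on the opposite strand, so reads of other transcripts in the overlap could be told apart only where strand was used. Hspb1 (HSP25) was at 42.7, 47.6 and 58.9 CPM in females and 48.2, 33.6 and 46.4 CPM in males, overlapping, with 60.8% of its words shared with the pseudogene Hsp25-ps1, and Hspb8 at 23.1 to 26.7 and 18.8 to 27.7 CPM.

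Hspb6 and Hspb7 were instead high in 1 library of each sex, and the part of muscle in their levels was not tested. Hspb6, a small heat shock protein of muscle, was at 3.01, 15.5 and 2.31 CPM in females 1, 2 and 3 and 2.40, 3.19 and 16.8 CPM in males 1, 2 and 3. Hspb7, the cardiovascular member, was at 1.72, 11.4 and 0.56 CPM and 0.89, 0.71 and 14.2 CPM. Female 2 and male 3 were the high libraries of both genes. The same 2 libraries were highest in skeletal muscle actin, Acta1, at 54.4, 197 and 5.07 CPM in females and 0.98, 0.71 and 259 CPM in males, and female 2 and male 3 held 15 and 13 of the Hspb3 counts where the other libraries held 0 to 2. Other muscle genes were spread differently. The fast myosin heavy chain Myh4 was at 102.8, 74.6 and 8.84 CPM in females and 0.86, 0.09 and 0 CPM in males (log2 fold change -7.49, edgeR quasi-likelihood adjusted p = 0.0424), and the myosin light chain gene Mylpf was highest in female 1, at 41.9 CPM. The log2 fold changes between the sexes were 0.10 ± 0.91 for Hspb6 and 0.20 ± 1.32 for Hspb7. Hspb2, by contrast, was lower in female 2 than in every male library.

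**Figure D4:**
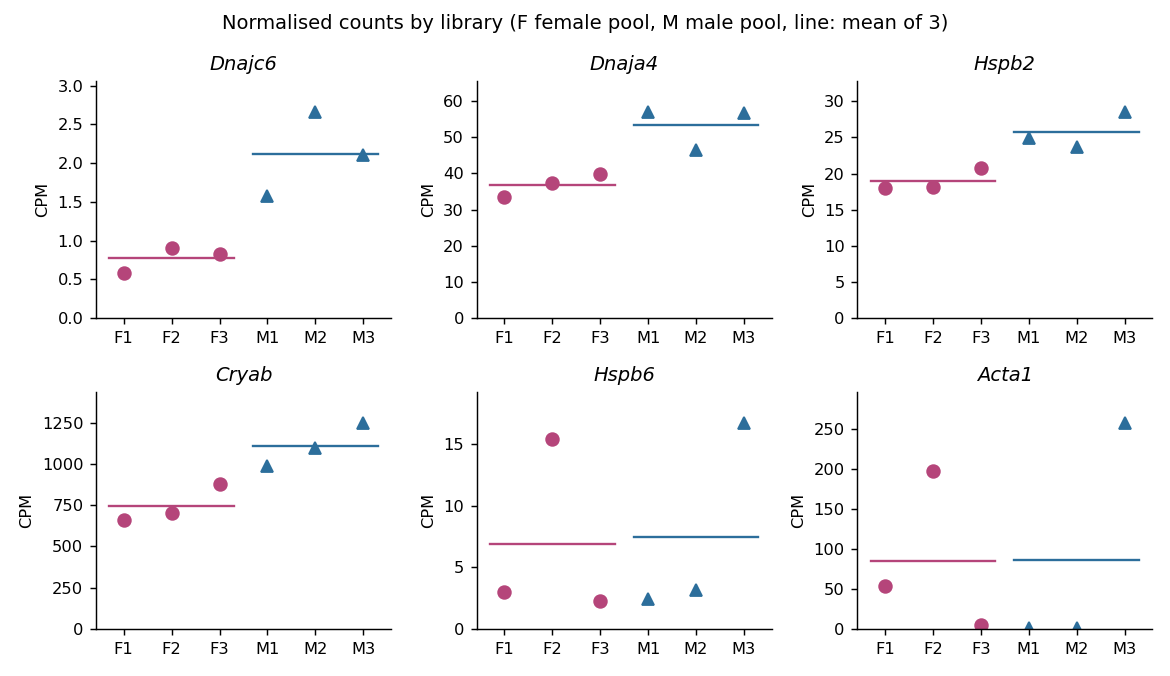
Normalised counts (y axes, CPM, from 0) of Dnajc6, Dnaja4, Hspb2, Cryab, Hspb6 and Acta1 in each library (x axes; circles, females F1 to F3; triangles, males M1 to M3; lines, mean of 3). Males lie above females in the first 4 panels, whereas in Hspb6 and Acta1 the high libraries are F2 and M3.

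The mitochondrial chaperonin genes Hspd1 (HSP60, the folding barrel) and Hspe1 (HSP10, its lid) share the stretch printed above, their starts lying 108 bases apart on chromosome 1 (55127183 and 55127291). Hspd1 was at 222, 207 and 193 TPM in females and 167, 185 and 157 TPM in males, without overlap on this scale, whereas its CPM overlapped. Hspe1 was at 334, 354 and 417 TPM in females and 329, 427 and 334 TPM in males. The level of Hspe1 was 1.51 to 2.31 times that of Hspd1 in every library, and on the count scale female 3 and male 2 were the high libraries of both genes. The log2 fold changes were -0.14 (95% interval -0.41 to 0.13) and 0.0007 (-0.32 to 0.32). Of the words of Hspd1 and Hspe1, 57.3% and 48.1% occur in other genes, among them processed pseudogenes.

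The heat shock factor genes did not pass the test either. Hsf1, the main activator of the inducible genes, was at 32.1, 28.4 and 30.1 CPM in females and 34.5, 34.8 and 31.5 CPM in males, with a log2 fold change of 0.16 ± 0.10 (edgeR quasi-likelihood adjusted p = 0.415). Hsf2, active in development, was at 14.9, 16.3 and 15.4 CPM and 14.1, 13.9 and 16.1 CPM. Both overlapped between the sexes, and the 95% interval of the Hsf1 difference ran from -0.04 to 0.35. These are RNA levels and do not measure the activity of the factor, which is set by release and modification of the protein.

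In the wider folding network, 1 of 93 tested genes in 6 lists was called, beside 5.3% of all genes: Ranbp2, a nuclear pore protein with a cyclophilin domain, held 160, 179 and 122 CPM in females and 107, 88.0 and 94.1 CPM in males. It was lower in males without overlap, with a log2 fold change of -0.67 ± 0.16 (edgeR quasi-likelihood adjusted p = 0.0813). Ranbp2 missed the threshold with the muscle score as covariate (adjusted p = 0.188), with the replicate block (adjusted p = 0.178) and without any one library other than female 3 (adjusted p = 0.112 to 0.272). The 28 cytosolic cochaperones had a median of 0.014 and the 20 HSF1 targets outside the families a median of 0.0019. None of the 26 genes of endoplasmic reticulum folding was called, and the stress sensor gene Ern1 had -0.63 ± 0.18 (adjusted p = 0.118). Of the 14 chaperonin TRiC and prefoldin genes, 9 had negative and 5 positive values, where 46.7% of all genes were above 0. Their median was -0.21, and none was called. The TRiC genes, Tcp1 and those named Cct, all had negative values, from -0.30 to -0.20. The prefoldin genes, Vbp1 included, ran from -0.02 to 0.20, all but Pfdn4 above 0. CPM did not overlap in 5 of the 14, all higher in females, beside 11.6% of all genes. Cct8 was at -0.30 ± 0.11 (edgeR quasi-likelihood adjusted p = 0.172). The 12 mitochondrial folding and import genes had a median of -0.057, with Trap1, the mitochondrial HSP90, at -0.44 ± 0.12 (adjusted p = 0.103).

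In some genes the division of reads among transcripts differed between libraries. Hspa8 is listed with a full transcript, Hspa8-201, of 2394 bases and a shorter Hspa8-202 of 2019 bases. The share of Hspa8-202 in the gene's TPM was 3.79%, 1.65% and 24.6% in females 1, 2 and 3 and 26.7%, 38.7% and 25.9% in males. For Hsp90aa1, the longer Hsp90aa1-202 (3281 bases) had 76.2%, 63.5% and 34.8% in females and 34.5%, 20.8% and 26.2% in males, and the shorter Hsp90aa1-201 (2852 bases) most of the remainder. In both genes females 1 and 2 stood apart and female 3 lay beside the males. Dnajc13-201, the full-length transcript of 8012 bases, held 77.6%, 81.5% and 46.9% in females and 68.5%, 30.7% and 51.8% in males, the rest going to short fragments of the gene. Salmon divides reads among such overlapping transcripts by its model, and these shares are a description without a test.

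**Figure D5:**
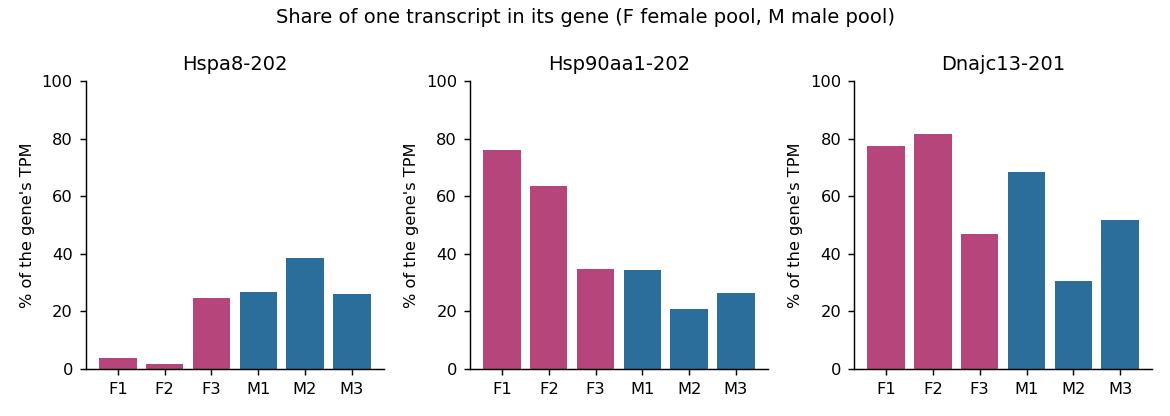
Share of Hspa8-202, Hsp90aa1-202 and Dnajc13-201 in the TPM of their genes (y axes, percent, from 0 to 100) in each library (x axes; F1 to F3, female pools; M1 to M3, male pools; bars, 1 value per library). F1 and F2 are the lowest bars for Hspa8-202, at 3.79% and 1.65%, and the highest for Hsp90aa1-202, at 76.2% and 63.5%.

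TPM divides by the effective length of the transcripts a library was given, so these shares can change levels set by TPM. Their part in the differences below was not tested. Hspa1a and Hspa1b, listed with 1 transcript each, also moved with the length offset, from 0.22 to 0.50 and from 0.27 to 0.57. Between the means of TPM and of CPM, 14 of the 69 genes changed the sign of the difference between the sexes, Dnaja1 among them. With the same lengths as an offset in the test, Dnajc6 and Dnaja4 were the 2 genes called, 17 genes changed sign, and 10 moved by over 0.2 on the log2 scale. Dnajc13 moved from -0.50 to -0.06.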

How the data were processed

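Proximal sciatic stumps were measured by poly-A RNA-seq from stranded libraries. There were 2 animals per library and 3 libraries per sex from separate animals, so p-values measure the spread between pools. The submitters' processing notes name Trimmomatic 0.39, Salmon 1.5.2 and MultiQC 1.9. The authors deposited Salmon's table per transcript, with an estimated count that is not normalised and need not be whole. The deposited TPM values divide each count by the transcript's effective length in bases and bring all libraries to 1 total. Salmon splits reads shared by near-identical copies by its model, and its strand setting is not given in the sources used here. The GENCODE release is given differently by the methods and by the names of the tables, both on GRCm39, and positions here come from the later release M39.

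Transcripts were summed per symbol and counts rounded. In R 4.3.3, edgeR 4.0.16 was used with filterByExpr, normalisation by the trimmed mean of M values, and the quasi-likelihood test with sex as the only term; Benjamini-Hochberg adjustment ran over 18396 genes, with a threshold of 0.1. The SE was the log2 fold change divided by the square root of F, and CPM were taken on normalised library sizes. Levels of different genes were compared by TPM only. Columns of other samples numbered 0. The tests were checked on simulated data.

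The genes, lists and rule for named genes were chosen with earlier results of these data known. The rule took genes past the threshold, the 10 most abundant, defining stress genes and the 2 largest differences of each family; other genes were named after their values were seen. Alternatives were DESeq2 1.42.0, limma 3.58.1 (voom), other scaling and filters, a length offset, a muscle score as covariate, a replicate block and leaving out each library. No library was a copy of another. Of the 8 untested genes, 1 is not reported here.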

Additional observations from a re-analysis of the deposited data

Results flagged for a closer look

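Of the 15 matching symbols that have no protein-coding transcript and were left out, all processed pseudogenes, Hspd1-ps4 was the 1 with counts in every library above the limit of 3 that a count of 0 allows. It held 37, 33 and 38 estimated counts in females and 10, 18 and 17 in males, 153 in all. The female libraries were all above the male libraries (log2 fold change -1.27, adjusted p = 0.136 by the edgeR quasi-likelihood test). Hspd1 itself had 12680 to 21549 counts per library and shares 57.3% of its 31-base words with other genes, and the part of its reads in these counts was not tested. Adding the pseudogene counts to their parent genes, a choice made after seeing the data, left the same 2 chaperone genes called.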

How the results depend on the processing

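The count of 2 chaperone genes higher in males was the same with DESeq2 size factors, library size alone, limma-voom, no filter and the length offset, and for each the genes were Dnaja4 and Dnajc6. It was 3, with Hspb2 added, under a filter of 1 CPM in 3 libraries, with 6.02% of all genes called. It was 4 with the DESeq2 Wald test, which also called 2 higher in females, and 4 among protein-coding genes alone, beside 13.3% and 7.03% of all genes. It was 0 with an adjusted p under 0.05, with the muscle score as covariate (3.96% of all genes called) and with the replicate block (0.304%). Same-numbered libraries did not deviate together (correlations of -0.039, -0.304 and -0.296), so the block stands for no known pairing, and it left 56 genes called of all tested. Leaving out a library gave 0 to 6 higher in males and 0 to 1 higher in females, 0 in both directions without female 1, female 2 or male 3, and the fold changes stayed between 0.46 and 0.65 for Dnaja4 and between 1.28 and 1.62 for Dnajc6. Their adjusted p over all alternatives ran from 0.00898 to 0.268 and from 0.00103 to 0.215.

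The wider folding network, with 1 gene called, had 8 with the DESeq2 Wald test, 3 with no filter, 2 with a CPM filter, the length offset or protein-coding genes alone, and 0 with the replicate block or an adjusted p under 0.05. Leaving out a library gave 0 to 8. The median log2 fold change of the chaperone genes was -0.0119 with the muscle score and -0.0176 to 0.0546 leaving out a library, -0.0176 without female 1. Values near 0 changed sign. Hspe1 was -0.04 with library size, -0.0014 with the length offset, -0.0015 with the block and -0.15 with the muscle score, and Hsph1 -0.0048 with library size and -0.14 with the muscle score. With the length offset Hspa12a was -0.05 and Hspa8 0.02. Leaving out a library gave ranges of -0.12 to 0.05 for Hspa8, -0.12 to 0.15 for Hspe1, -0.22 to 0.03 for Hspa5, -0.02 to 0.14 for Dnajb1, -0.05 to 0.43 for Hspa1b and -0.10 to 0.19 for Hsph1. The causes were not tested. With 3 pools per sex, a difference of the size of most chaperone genes could not be told from the spread between pools.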
